A study of Salmo salar with 51 samples.

Results

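Atlantic salmon sampled at 35, 41 and 47 days post fertilization (dpf) were compared with those sampled at 20, 25 and 30 dpf, in 18 of the 51 arrays of the series. The 2 groups were formed from the labelled days alone, with 9 arrays each and each time point weighted equally. The series covered 17 time points between 2 and 89 dpf with 3 whole fish on each day, and every fish had a 44K salmonid oligonucleotide array of its own. The fish were of the McConnell (Mowi) strain, all were raised in fresh water at 12°C, and there was no treatment, so by the labels the groups differ in age. The groups also lie on partly different slides. By the study's staging, the 35 dpf samples belonged to the formation of caudal rays and the 41 and 47 dpf samples to free embryos or alevins, and hatching fell between the 35 and 41 dpf samplings. In the earlier group, the 20 dpf samples belonged to the vascularization of the yolk sac and the 25 and 30 dpf samples to the formation of caudal rays. The individual was labelled with Cy5 on every array and a pool of RNA from all time points with Cy3, so each value is a log2(Cy5/Cy3) ratio to the same pool, and the dyes were not swapped. Because whole fish were used, a higher ratio for a gene of 1 tissue cannot tell more of that tissue from more RNA per cell of it.

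In a salmon embryo of this age the organs are laid down and blood already circulates over the yolk sac. Trunk muscle is built of sarcomeres, in which myosin pulls on actin under the control of troponin and calcium. It is fuelled by creatine phosphate and glycogen, and the purine nucleotide cycle also runs in it. The first red cells of fish are a primitive generation with embryonic hemoglobins, which is later replaced by definitive red cells with other hemoglobin subunits. After hatching the alevin still feeds from its yolk, while gut, gill, skin and the lymphoid organs go on differentiating.

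A probe was tested if its Cy5 signal carried no flag and was 500 or more on the 3 arrays of any 1 of the 6 time points, which left 14342 probes, 3429 of them with a description. Array medians of Cy5 reached from 160 to 441 at 35-47 dpf and from 210 to 601 at 20-30 dpf. Between 7450 and 19661 probes per array reached the minimum at 35-47 dpf, against 12255 to 22457 at 20-30 dpf. Of the tested probes, 558 passed the minimum in the 35-47 dpf group only and 3812 in the 20-30 dpf group only. The 35-47 dpf arrays lay on 8 slides and the 20-30 dpf arrays on 9, and 4 slides held an array of each group. On these 4 slides the pairs were 35 and 25, 41 and 30, 35 and 20, and 41 and 25 dpf, with no 47 dpf array. Results within these slides therefore cover fewer days than the pooled comparison. In each group, 3 arrays lay on slides 1 to 6, and 6 on slides 7 to 14. The 20 dpf sample of replicate 3 stood apart within its group, with the lowest median over the contractile probes described below.

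Between the 2 groups, 980 probes were at least 2-fold higher at 35-47 dpf and 268 were at least 2-fold lower (limma, adjusted p under 0.05 over all tested probes), which is 6.83% and 1.87% of the tested probes, or 8.7% together. Without the fold minimum, 2133 probes (14.9%) rose and 1795 (12.5%) fell, and the median difference over all tested probes was -0.07 on the log2 scale. With median centring of each array in place of loess, the median difference was -0.30, and 728 probes were at least 2-fold higher and 633 lower, so that rises made up 53.5% of the 2-fold changes, against 78.5% with loess. Direction is the sign of the loess difference, from which the median was not subtracted. The direction of changes well under 2-fold therefore depends on the centring, as do the counts at 2-fold. The spread in this test is that between individuals of the same day. With the 6 time point means as the units, 3 against 3, 700 probes were at least 2-fold higher and 204 lower, and 853 rose and 409 fell at any fold. In 420 of the 980 higher probes every 35-47 dpf array lay above every 20-30 dpf array, and in 41 of the 268 lower probes every one lay below, while 3.25% and 0.363% of all tested probes were separated in these directions. Of the 980 higher probes 247 had passed the signal minimum at 35-47 dpf only, and of the 268 lower probes 149 at 20-30 dpf only. These entered through the group in which they were high. Among the 9972 probes that passed in both groups, 706 were at least 2-fold higher and 113 lower.

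**Figure D1:**
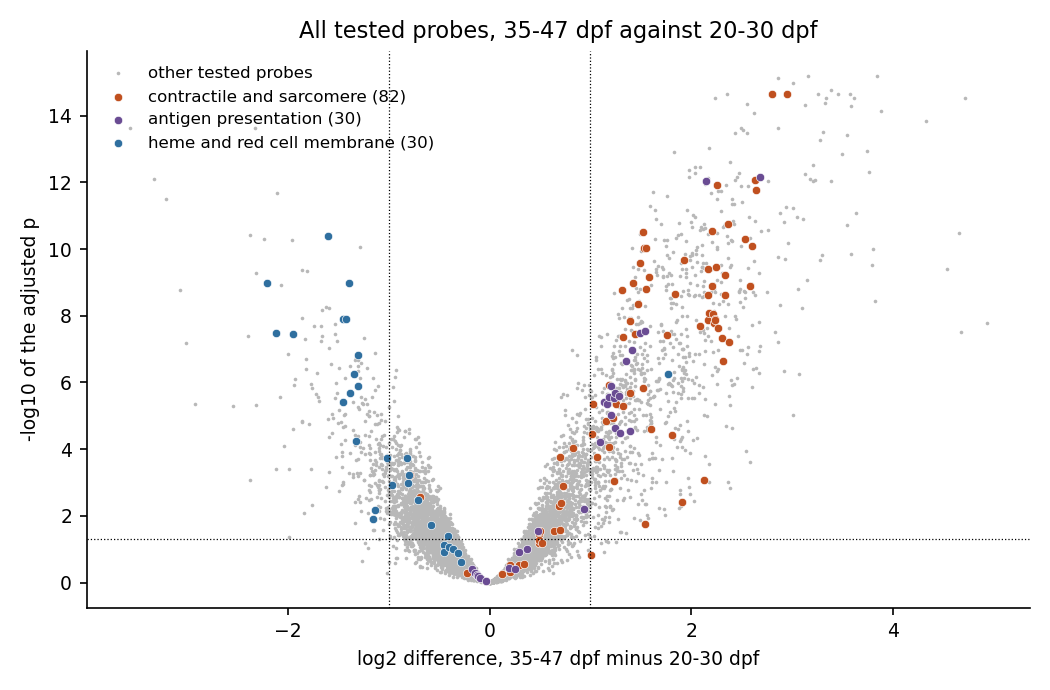
Log2 difference of each of the 14342 tested probes, 35-47 dpf minus 20-30 dpf, against the -log10 of its adjusted p, with dotted lines at 2-fold and at an adjusted p of 0.05. Contractile and antigen presentation probes lie mostly at the right, and the probes for heme synthesis and the red cell membrane at the left.

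Genes of muscle made up 6 of the 10 largest rises that met the rule for named genes. Of 82 tested probes for contractile and sarcomere proteins 68 rose and 2 fell, with 59 of the rises at least 2-fold and a median difference of 1.50 on the log2 scale, against -0.07 over all tested probes. Of 34 probes for muscle energy metabolism 27 rose and none fell, with a median of 1.73, and of 7 for muscle calcium handling 5 rose and 1 fell. The descriptions come from lists of probes that the study had called changed between time points of these same fish, so a list is not independent evidence of its direction. Among the contractile probes listed only for comparisons that used none of the 18 arrays, 45 of 57 rose and 2 fell.

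Creatine kinase M-type, which regenerates ATP from creatine phosphate in muscle, had the largest difference of them. Ckm (probe C137R129) had log2 ratios between -0.13 and 0.98, with a median of 0.35, at 35-47 dpf, and between -4.77 and -1.32, with a median of -3.06, at 20-30 dpf. All arrays at 35-47 dpf lay above all at 20-30 dpf, by a mean of 3.61 ± 0.24 (SE), or 12.2-fold (limma, adjusted p = 2.91e-15). Its mean ratio was -4.47 at 20, -3.39 at 25, -1.69 at 30, 0.48 at 35, 0.39 at 41 and 0.42 at 47 dpf. The means climbed through the earlier group and were level from 35 dpf. The other 2 tested probes for Ckm rose as well, and their differences reached from 1.71 to 3.58.

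A pair of enzymes that act in the purine nucleotide cycle were among the 10 largest rises. AMP deaminase 1 (Ampd1, C182R095), the muscle isoform, had ratios between -1.47 and 0.25 at 35-47 dpf and between -5.98 and -2.60 at 20-30 dpf, a 10.1-fold rise (limma, adjusted p = 2.95e-15). Adenylosuccinate synthetase isozyme 1 (ADSSL1, C098R022) had ratios between -0.47 and 0.96 at 35-47 dpf and between -5.17 and -1.68 at 20-30 dpf, an 8.92-fold rise (limma, adjusted p = 6.51e-16). Neither enzyme's groups overlapped. Of the 4 tested ADSSL1 probes 2 rose, and the lowest difference among them was -0.06. The muscle form of glycogen phosphorylase (PYGM), which releases glucose units from glycogen, rose by 1.98 and 2.51 on its 2 probes, and muscle 6-phosphofructokinase (PFKM), the committed step of glycolysis, by 2.63 and 3.38.

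Proteins of both slow and fast fibres were among the contractile rises. Slow-type myosin-binding protein C (MYBPC1, C143R073), a thick filament protein, had ratios between 1.06 and 2.04 at 35-47 dpf and between -3.67 and -0.25 at 20-30 dpf, a 7.72-fold difference without overlap (limma, adjusted p = 2.27e-15). Slow skeletal troponin T (Tnnt1, C020R081), which anchors troponin to tropomyosin, was 6.98-fold higher, with ratios between -1.10 and 0.41 at 35-47 dpf and between -5.48 and -2.34 at 20-30 dpf. Myosin light chain 3 (MYL3, C192R014) was 6.26-fold higher and not overlapping either. The fast fibre protein alpha-actinin-3 (ACTN3) rose by 2.61, a probe for fast skeletal myosin heavy chain by 2.53, and the 4 probes for nebulin (NEB), the ruler of the thin filament, by 0.71 to 2.37. Of 17 probes described as titin, the giant spring of the sarcomere, 15 rose by between 2.09 and 2.59, 1 did not pass the test and 1 fell by 0.79, and a second contradiction lay in myosin-6, with 1 probe at 2.21 and 1 at -0.69. The members given here and below beside a list without a probe code are examples picked after their values had been seen.

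The calcium store of the muscle fibre changed with them. The histidine-rich calcium-binding protein of the sarcoplasmic reticulum (HRC, C039R055) was 5.70-fold higher at 35-47 dpf (limma, adjusted p = 5.37e-09), with ratios between -0.06 and 0.89, against -4.85 to -0.89 at 20-30 dpf. The calcium pump atp2a1 rose by 1.92 and 2.16 on 2 probes and the calcium buffer calsequestrin-1 (CASQ1) by 1.89, whereas 1 of 2 probes described as thymic parvalbumin CPV3 fell by 0.59 and the other, at -0.42, did not pass the test.

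Median ratios of the contractile list show when this happened. Relative to each probe's own 20-30 dpf mean, the list stood at -0.78 at 20, 0.14 at 25, 0.62 at 30, 1.41 at 35, 1.44 at 41 and 1.78 at 47 dpf. Its median on single arrays lay between 1.33 and 1.77 at 35-47 dpf and between -1.57 and 0.61 at 20-30 dpf, without overlap, and the lowest value belonged to the 20 dpf sample of replicate 3. Without that array 65 of the 82 probes rose and 2 fell, and without all 20 dpf arrays 57 rose and 1 fell. Within slides that held both groups 49 rose and none fell, and with time point means as units 47 rose and none fell. Over all probes, 620 of 13883 rose and 180 fell within those slides, and 853 of 14342 rose and 409 fell with time point means. Few probes passed in these settings, so a list with 1 call or none there is not set apart from all probes.

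**Figure D2:**
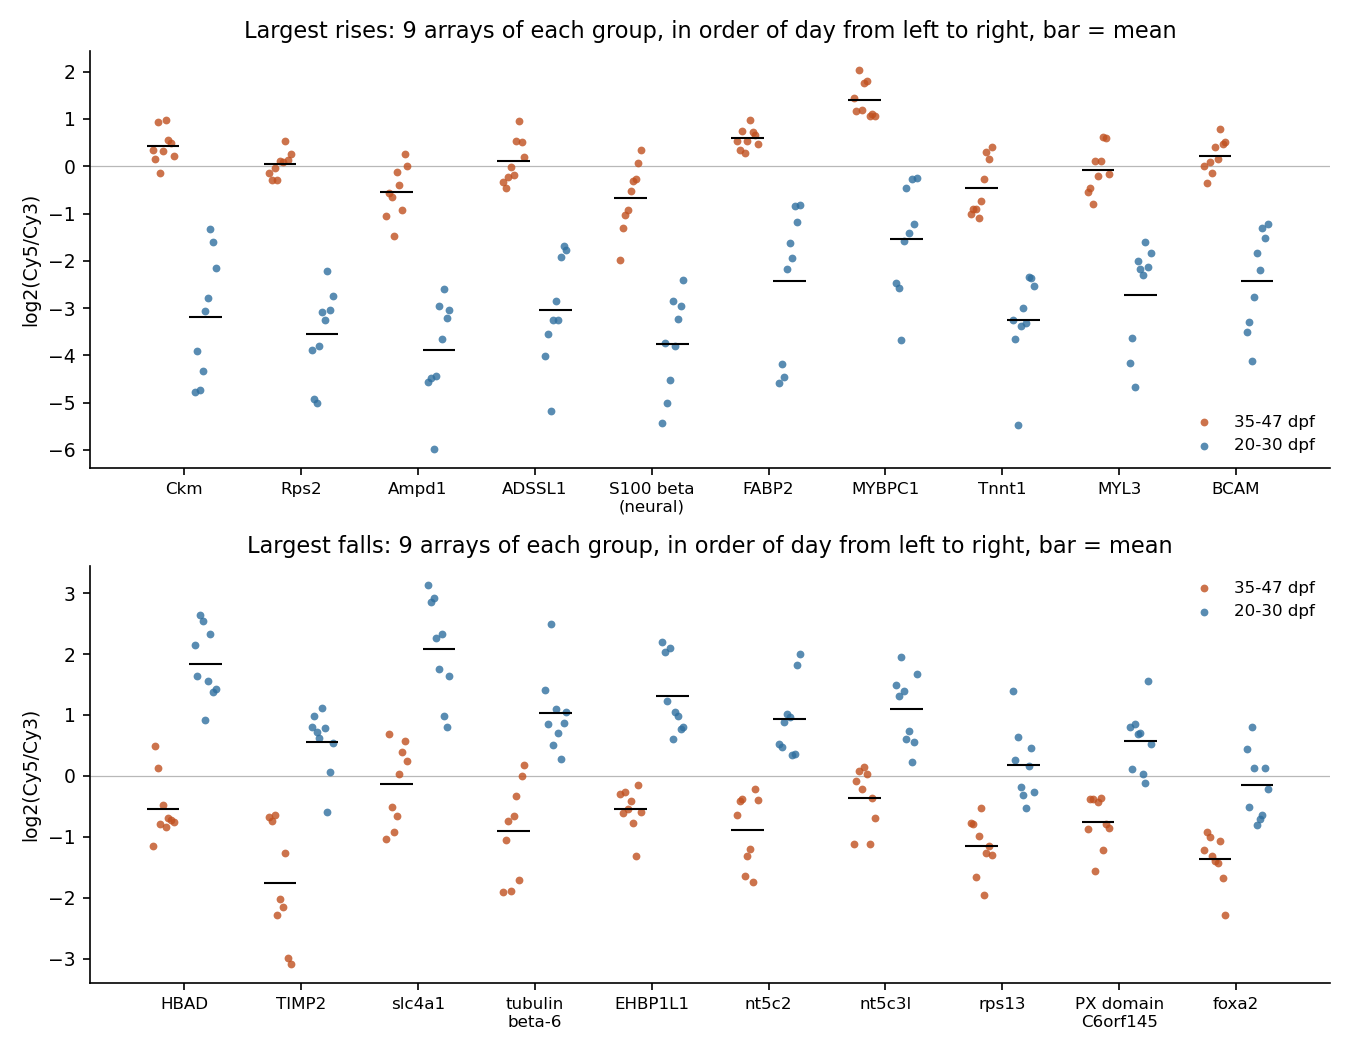
Log2(Cy5/Cy3) on each of the 9 arrays at 35-47 dpf (left of each pair) and 20-30 dpf (right) for the 10 largest rises (top) and 10 largest falls (bottom) that met the rule, with bars at the mean. The groups of every probe are separate, as the rule required, and most of the spread of the rises lies at 20-30 dpf, where Ckm reached from -4.77 to -1.32.

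Most probes for heme synthesis and the red cell membrane fell. Of 30 tested probes for heme synthesis and the red cell membrane 23 fell and 1 rose, 16 of the falls at least 2-fold, with a median difference of -1.08. Of these 30 probes, 10 passed the signal minimum at 20-30 dpf only. None of the 13 probes listed only for comparisons outside the 18 arrays rose, and 12 fell. Band 3 anion exchange protein (slc4a1, C259R152), which swaps chloride for bicarbonate across the red cell membrane, had ratios between -1.03 and 0.69 at 35-47 dpf and between 0.80 and 3.14 at 20-30 dpf. The groups did not overlap, and the ratio was 4.62-fold lower at 35-47 dpf (limma, adjusted p = 1.08e-09). Its mean was 2.97 at 20, 2.12 at 25, 1.14 at 30, -0.28 at 35, -0.52 at 41 and 0.40 at 47 dpf.

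All 5 probes for erythroid 5-aminolevulinate synthase (alas2), which starts heme synthesis in red cells, fell by 1.30 to 1.60. The 3 probes for the ammonia transporter RHAG fell by 0.80 to 2.12, the iron importer of mitochondria, mitoferrin-1 (slc25a37), by 1.45, the transferrin receptor (TFRC) by 1.33 and the erythropoietin receptor (EPOR) by 1.30. Of the other enzymes of the pathway, uroporphyrinogen-III synthase (UROS) had differences of -1.38 to -1.02 on 3 probes and uroporphyrinogen decarboxylase (urod) of -0.82 and -0.71, and these all fell. Delta-aminolevulinic acid dehydratase had differences of -0.42 to -0.31, with 1 of 3 probes past the test, and coproporphyrinogen III oxidase of -0.46 and -0.29, with neither probe past it. The exception was ERMAP, an erythroid membrane protein of the immunoglobulin family, which rose by 1.77. The median of the list stood at 0.75 at 20, -0.13 at 25, -0.43 at 30, -1.07 at 35, -0.96 at 41 and -1.06 at 47 dpf, so the level was reached by 35 dpf and held over hatching. Without the 20 dpf time point 14 of the 30 probes fell and 1 rose, with a median of -0.59. Within slides that held both groups 10 fell and 1 rose, and with time point means as units 11 fell and none rose.

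The hemoglobin probes went both ways. Of the 6 tested, 4 passed the signal minimum at 20-30 dpf only and 1 at 35-47 dpf only. Such probes entered through the group in which they were high, so their size and count are descriptions. Both probes for hemoglobin subunit alpha-D (HBAD) fell without overlap, C225R074 by 5.19-fold and C062R154 by 5.01-fold, with ratios between -1.15 and 0.50 and between -1.71 and -0.48 at 35-47 dpf and between 0.92 and 2.64 and between 0.34 and 2.31 at 20-30 dpf. Subunit alpha-4 (hba4) fell by 1.43, and subunit alpha (hba) by 0.96 with an adjusted p of 0.00354 in limma, a call lost under 9 other settings. The means of hba were 0.16 at 20, -1.38 at 25, -1.50 at 30, -2.54 at 35, -2.54 at 41 and -0.52 at 47 dpf. At 47 dpf it thus stood above its 25 and 30 dpf means. Subunit beta (hbb, C026R038) rose by 3.28 and subunit beta-4 (hbb4, C021R112) by 2.46. Both calls were lost with time point means as units and within the slides that held both groups but no 47 dpf array. The within-slide differences of hbb4 reached from -0.94 to 3.37. The groups overlapped for hbb and for hbb4. The means of hbb were -3.48 at 35, 0.15 at 41 and 2.27 at 47 dpf, and 1 array at 47 dpf was saturated and left out. The pooled differences of hbb and hba are thus averages over fish before and after hatching.

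Among genes of antigen presentation, most of the rising probes were for beta-2-microglobulin. Of 30 tested probes 20 rose and none fell, 18 of them at least 2-fold, with a median of 1.18. All 15 probes for beta-2-microglobulin (b2m), the light chain of MHC class I, rose, by 0.94 to 2.15, and these 15 share their target. In b2m probe C125R048 the ratios lay between -2.12 and 0.15 at 35-47 dpf and between -4.00 and -1.99 at 20-30 dpf, so the groups overlapped (4.44-fold higher, limma, adjusted p = 9.26e-13). A class I heavy chain rose by 2.69, and the MHC class II invariant chain (Cd74) by 1.49 and 1.54. The 5 probes for proteasome activator subunit 1 had differences of -0.17 to -0.09. Those of the 4 probes for subunit 2 were 0.19 to 0.37, and no probe of either subunit passed the test. The median of the list was -0.27 at 20, -0.21 at 25, 0.60 at 30, 0.41 at 35, 1.23 at 41 and 1.76 at 47 dpf. The time point means of b2m C125R048 were -1.90 at 35 dpf and -0.32 at 47 dpf. Within slides that held both groups 8 of the 30 probes rose and none fell, and with time point means as units 2 rose and none fell. The latter share of rises is close to that over all tested probes in that setting, 853 of 14342. Of 40 probes for complement and innate defence 12 rose and 4 fell, but 3 rose and 6 fell with median centring. Without the 20 dpf time point 2 rose and 5 fell, and with time point means as units 1 rose and 2 fell. The median of this list was 0.70 at 30 dpf, against 0.20 at 35, 0.24 at 41 and 0.52 at 47 dpf. Of these 40 probes, 3 passed the signal minimum at 35-47 dpf only and 4 at 20-30 dpf only. All 3 probes for complement C3, the protein at the centre of the cascade, rose by 0.74 to 1.21, while GIMAP7, a GTPase of lymphocytes, fell by 1.86 on 1 of 2 probes.

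**Figure D3:**
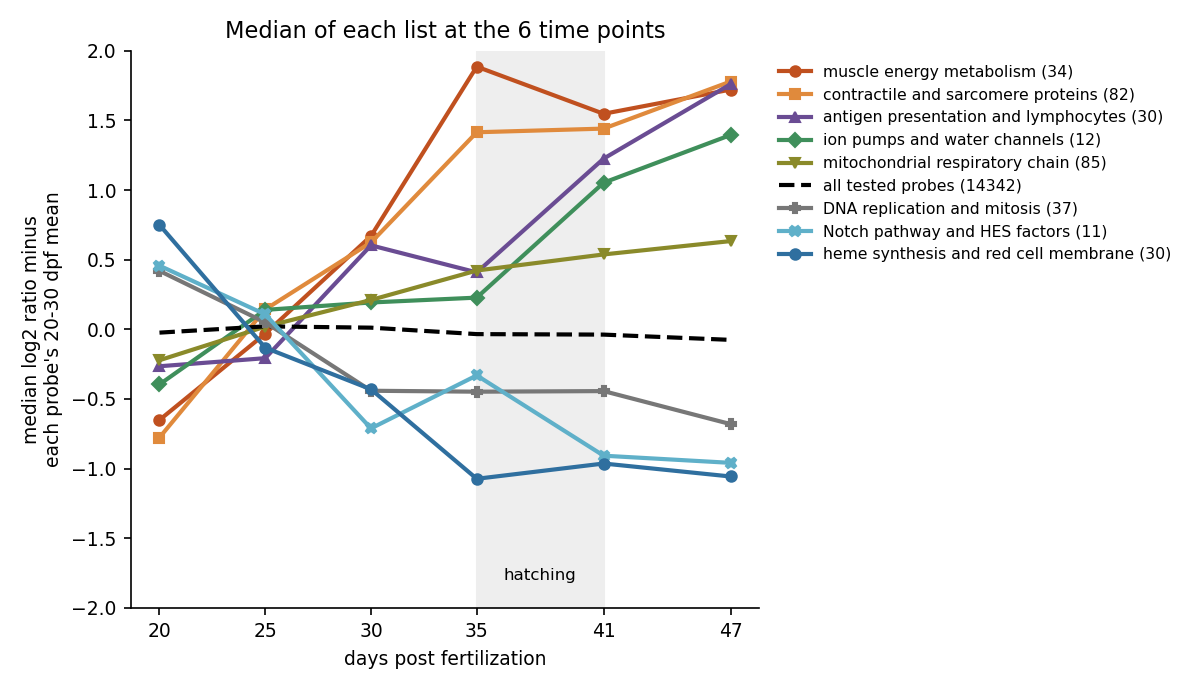
Median over the probes of 8 lists and over all tested probes at 20, 25, 30, 35, 41 and 47 dpf, as the log2 ratio minus each probe's own 20-30 dpf mean. The number of probes is in brackets, and the interval between the 35 and 41 dpf samplings, within which hatching fell, is shaded. The muscle lists reach 1.41 and 1.89 at 35 dpf, the antigen presentation list passes 1 only at 41 dpf, and the red cell list is at -1.07 at 35 dpf.

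Single genes of gut, ion transport and mucus were among the rises. Intestinal fatty acid-binding protein (FABP2, C067R037), which carries fatty acids in enterocytes, had ratios between 0.29 and 0.99 at 35-47 dpf and between -4.59 and -0.82 at 20-30 dpf. It was 8.06-fold higher without overlap (limma, adjusted p = 1.05e-15), and its means of -4.41 at 20 dpf, -1.91 at 25 dpf, -0.95 at 30 dpf and 0.54 at 35 dpf show that most of the change came before hatching. Of 12 probes for ion pumps and water channels 10 rose and none fell. Within slides that held both groups, and with time point means as units, 1 of the 12 rose. That is too few to set the list apart from all tested probes, of which 620 of 13883 and 853 of 14342 rose there. The sodium pump subunit atp1b3 (C059R034) rose 3.11-fold without overlap, with ratios between -0.35 and 0.37 at 35-47 dpf and between -2.12 and -0.73 at 20-30 dpf (limma, adjusted p = 6.73e-12). Of 11 probes for mucins and mucus secretion 8 rose and none fell, but only 1 rose and 1 fell without the 20 dpf time point. Of these 11 probes, 2 passed the signal minimum at 35-47 dpf only. AGR3 (C031R044), a relative of the mucin-folding enzyme AGR2, was 5.28-fold higher, and its groups overlapped.

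The lists of eye and nervous system held more rises than falls. Of 15 probes for lens crystallins 9 rose and none fell, with Gamma-crystallin M2 (GM2, C118R163) 4.96-fold higher and overlapping, but no crystallin probe rose within slides that held both groups. The means of GM2 were -3.02 at 20, -0.37 at 25, -2.68 at 30 and 0.33 at 35 dpf. Relative to each probe's 20-30 dpf mean, the crystallin median was already 0.63 at 25 dpf, against 0.99 at 35, 0.48 at 41 and 0.65 at 47 dpf. No photoreceptor probe reached the signal minimum on all 9 arrays of either group, against 14 crystallin probes at 35-47 dpf and 12 at 20-30 dpf. Of the 6 photoreceptor probes tested 4 rose and 1 fell, with rises of 3.31 for RPE65, the isomerase of the retinal pigment epithelium, 3.55 for the rod phosphodiesterase PDE6G and 2.50 for the cone transducin Gnat2. These 3 probes passed the signal minimum at 35-47 dpf only and 2 others at 20-30 dpf only, so their size and count are descriptions of probes that entered through the group in which they were high. Of 7 probes for myelin and glia 5 rose and none fell, but 2 of the 7 passed the signal minimum at 35-47 dpf only. Protein S100-B (S100b, C051R029), a calcium-binding protein of glia, was 6.18-fold higher without overlap. Its ratios lay between -0.15 and 1.45 at 35-47 dpf and between -3.47 and -0.74 at 20-30 dpf. A second probe described as neural S100 beta (C044R088) was 8.62-fold higher (limma, adjusted p = 1.23e-11). Myelin-associated glycoprotein rose by 3.13. Of 24 neuron and synapse probes 13 rose and 2 fell, led by the glutamate transporter SLC1A2 (C156R076), which was 5.42-fold higher, with ratios between 0.23 and 0.84 at 35-47 dpf and between -3.80 and -0.55 at 20-30 dpf.

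**Figure D4:**
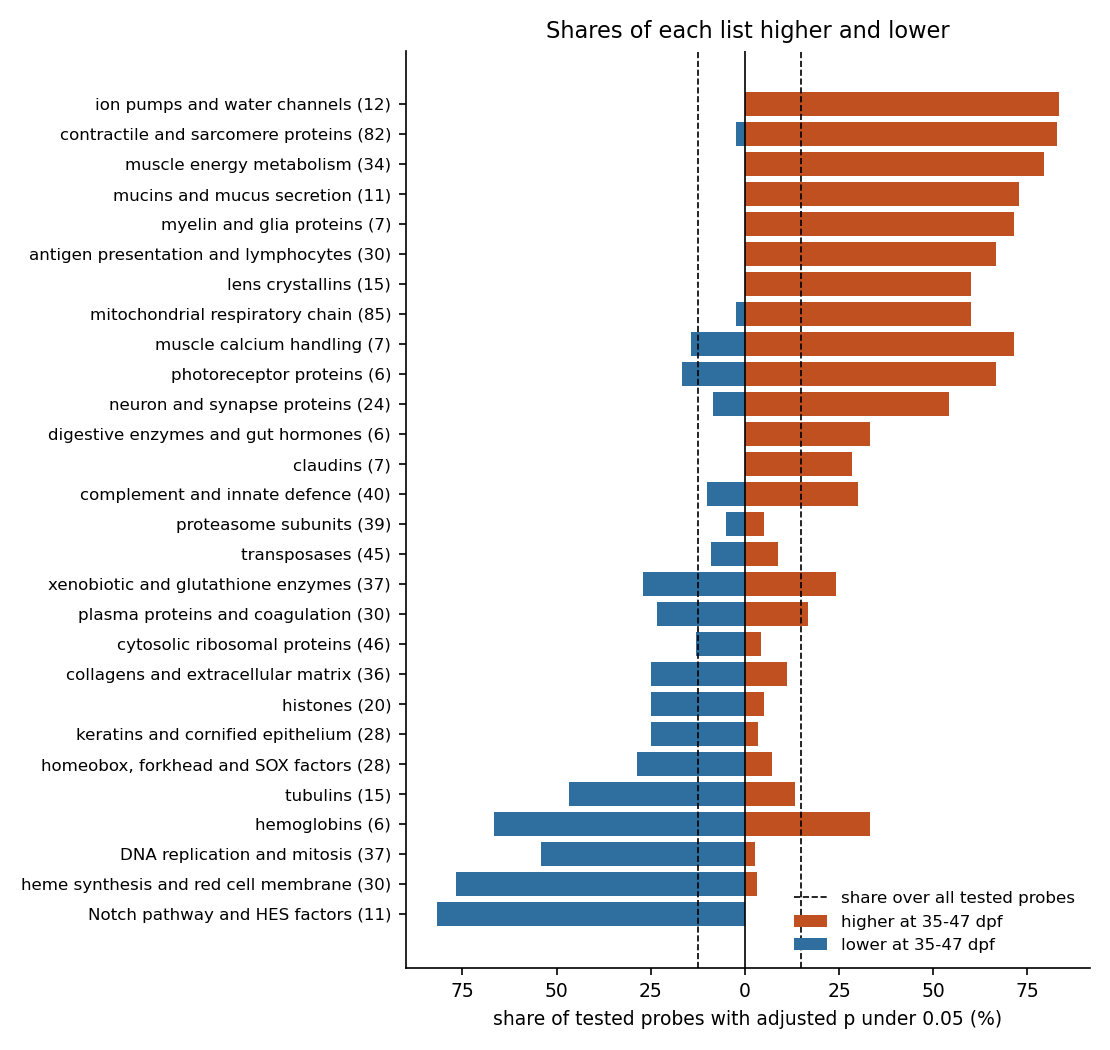
Share of the tested probes of each list that rose (right) or fell (left) at 35-47 dpf, with the number tested in brackets and dashed lines at the shares over all tested probes, 14.9% and 12.5%. Ion pumps, contractile proteins, muscle energy metabolism, mucins, myelin and antigen presentation stand at the top, and heme synthesis with the red cell membrane and the Notch list at the bottom.

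Probes of DNA replication and mitosis that changed mostly fell, each by less than 2-fold. Of 37 probes for DNA replication and mitosis 20 fell and 1 rose, with a median of -0.51. Of these 37 probes, 8 passed the signal minimum at 20-30 dpf only. Relative to each probe's 20-30 dpf mean, the list median was 0.42 at 20, 0.05 at 25 and -0.44 at 30 dpf. It was -0.45 at 35, -0.44 at 41 and -0.68 at 47 dpf, so the level of 35 and 41 dpf was already reached at 30 dpf. The 3 probes for the replicative helicase subunit MCM3 fell by 0.79 to 0.85, and 1 of 2 probes each for the chromosome condenser Smc2 and the proliferation antigen KI-67 (MKI67) fell, by 0.81 and 0.71. A probe described as the zygotic helicase subunit mcm6-B (C253R107) rose 2.56-fold instead (limma, adjusted p = 5.7e-07). Without the 20 dpf time point 4 of the 37 probes fell and 1 rose, and none fell within slides that held both groups or with time point means as units. Over all tested probes, 180 of 13883 and 409 of 14342 fell in those 2 settings. Of 11 probes of the Notch pathway and HES factors 9 fell and none rose (2 and 0 within those slides, 1 and 0 with time point means). Without the 20 dpf time point 4 fell and none rose, and 3 of the 11 had passed the signal minimum at 20-30 dpf only. The median of this list was -0.71 at 30, -0.33 at 35, -0.91 at 41 and -0.96 at 47 dpf, relative to each probe's 20-30 dpf mean. Of the 9 falls 4 were at least 2-fold, all 4 for HES-5, a repressor that Notch induces in neural progenitors. In Hes5 (C200R082) the ratios lay between -1.61 and -0.26 at 35-47 dpf and between -0.57 and 2.34 at 20-30 dpf, with means of 2.04 at 20 dpf, 0.93 at 25 dpf and -0.09 at 30 dpf, so much of its fall came before 35 dpf. Of 28 homeobox, forkhead and SOX probes 8 fell, among them sox3, Sox9 and Foxc1, and 2 rose, among them otx2. Of these 28 probes 15 passed the signal minimum at 20-30 dpf only, and none rose or fell within slides that held both groups. Of 15 tubulin probes 7 fell and 2 rose, and the groups of a Tubulin beta-6 probe (C114R057) did not overlap at 3.81-fold lower.

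Respiratory chain probes rose in number but not in size. Of 85 probes 51 rose and 2 fell, 5 of the rises at least 2-fold, with a median of 0.57, and with median centring 12 rose and 2 fell. Within slides that held both groups 5 rose and 1 fell, a share of rises close to 620 of 13883 over all probes. With time point means as units 13 rose and 1 fell, while 853 of 14342 rose and 409 fell over all probes. All 3 probes for cytochrome c oxidase subunit 5B (COX5B) rose, C252R048 by 4.82-fold without overlap (limma, adjusted p = 1.82e-12), and the complex I paralog NDUFA4L2 (C012R129) fell 3.28-fold with overlap. Of 46 cytosolic ribosomal protein probes 2 rose and 6 fell, a smaller share of rises than over all tested probes and a share of falls close to it. One of them, described as 40S ribosomal protein S2 (Rps2, C143R143), had the largest rise of all named probes after that of Ckm, 12.0-fold, with ratios between -0.29 and 0.53 at 35-47 dpf and between -5.01 and -2.21 at 20-30 dpf. The other 2 probes with that description did not pass the test, at 0.58 and 0.64. Of 39 proteasome probes 2 rose and 2 fell, and the 2 probes for PSMB7 went opposite ways.

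Matrix, skin and plasma lists moved in both directions. Of 36 collagen and matrix probes 9 fell and 4 rose, with the microfibril collagen COL6A3 (C208R057) 2.10-fold lower and the collagen I chain col1a2 up by 0.75 and 0.86 on 2 of 4 probes. Of 28 keratin and cornified epithelium probes 7 fell and 1 rose, with the falls in krt8, krt18, envoplakin and periplakin, which mark simple epithelia or cell junctions, and the rise in krt13. Of 30 plasma and coagulation probes 7 fell and 5 rose, and 4 of the 5 probes for the protease trap alpha-2-macroglobulin (A2M) fell, by 1.13 to 1.59, whereas the kinin precursor KNG1 (C149R147) rose 2.17-fold without overlap. The only tested probe for the yolk precursor vitellogenin (vtg1) had a difference of -0.99, with an adjusted p of 0.0398 in limma that was lost under 22 other settings. Of 37 probes for xenobiotic and glutathione enzymes 9 rose and 10 fell, but with median centring 2 rose and 13 fell. The glutathione transferases were mixed: all 3 probes for alpha-4 and 2 of 7 for kappa 1 rose, whereas 1 of 5 for theta-1 fell. Among the falls were also cyp2k1 (C001R132), at 2.43-fold lower, and both catalase probes. Transposase probes stayed near the background, with 4 higher and 4 lower of 45, against 1 and 8 with median centring.

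The remaining probes of the 10 largest rises and falls are given here. Lutheran blood group glycoprotein (BCAM, C155R037), a laminin receptor, was 6.22-fold higher without overlap, with ratios between -0.35 and 0.78 at 35-47 dpf and between -4.11 and -1.22 at 20-30 dpf. Metalloproteinase inhibitor 2 (TIMP2, C037R043), which blocks matrix-degrading enzymes, was 4.99-fold lower, with ratios between -3.08 and -0.65 at 35-47 dpf and between -0.59 and 1.12 at 20-30 dpf. Its means were 0.00 at 30 dpf, -0.69 at 35, -2.15 at 41 and -2.44 at 47 dpf. EHBP1L1 (C212R158), a protein of vesicle traffic, fell 3.63-fold. The purine 5'-nucleotidase nt5c2 (C112R142), which removes phosphate from IMP, fell 3.52-fold and its relative nt5c3l (C174R066) 2.77-fold. The probe for 40S ribosomal protein S13 (rps13, C227R084), of the ribosomal list, fell 2.53-fold, a PX domain protein (C050R144) 2.52-fold, and hepatocyte nuclear factor 3-beta (foxa2, C172R152), a transcription factor of endoderm and floor plate, 2.32-fold. Some named falls were dim at 35-47 dpf and reached the signal minimum on fewer than 5 of the 9 arrays, on 1 in hba4 and GIMAP7, 2 in TIMP2 and foxa2, 3 in hba and the Tubulin beta-6 probe, and 4 in HBAD C225R074. Some named rises were dim at 20-30 dpf. They reached the minimum on 4 of the 9 arrays in Rps2, 5 in hbb, and 6 in Ckm, MYBPC1, AGR3, b2m C125R048 and both S100 probes. The size of these changes therefore rests in part on signals under the minimum. Only 10 descriptions met the conditions for falls, against 76 for rises. Of the 100 largest 2-fold rises 24 had a description, and of the 100 largest falls 48, so most of the strongest rises remain unnamed here.

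The differences were also taken within the 4 slides that held both groups, since arrays of 1 slide tended to deviate together. Over 5 pairs of different days on 1 slide, the median correlation of deviations from the time point means was 0.40 (-0.11 to 0.60). Over the other 130 pairs of different days it was 0.01 (-0.60 to 0.49). Of the 925 higher probes with values on all 4 slides 777 were higher on each of them, and of 258 lower probes 202 were lower on each. The median difference of the higher probes was 1.38 within slides, against 1.59 over all arrays, and that of the lower probes was -1.06 within slides, against -1.27. The within-slide values cover other days than the pooled ones, with no 47 dpf array and 20 dpf on 1 slide only. The arrays of these slides also entered the calls. For the 10 largest rises and falls the rule of no overlap fixes the direction within every slide, so only the size is informative there, and in Ckm the within-slide difference reached from 1.19, for 41 minus 30 dpf, to 4.93, for 35 minus 20 dpf. At the 7 later time points, 53 to 89 dpf, the median of the 980 higher probes lay between 1.96 and 2.19 above their 20-30 dpf mean, and that of the 268 lower probes between -1.86 and -1.52, so both sets stayed near or beyond their 47 dpf medians of 1.79 and -1.48.

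**Figure D5:**
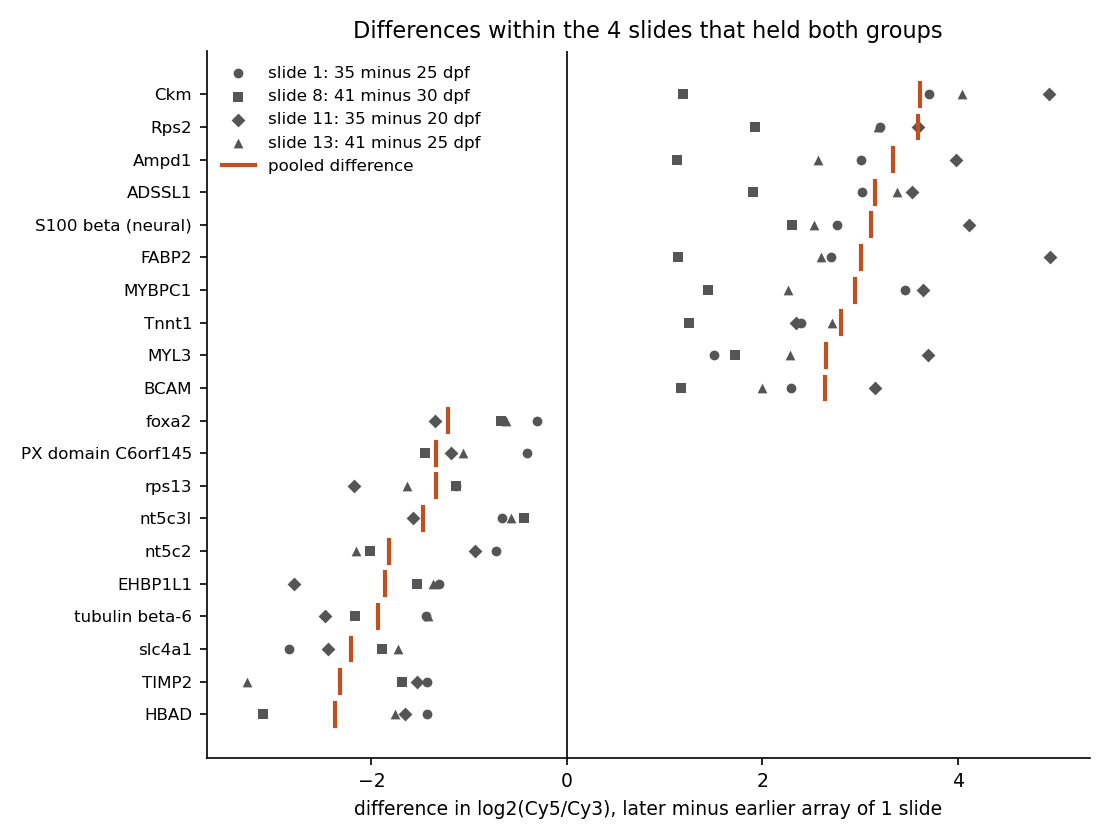
Difference in log2(Cy5/Cy3) between the later and the earlier array of each of the 4 slides that held both groups (grey symbols) for the 10 largest rises and 10 largest falls, with the pooled difference as an orange bar. The rule of no overlap fixes the side of the symbols, and their spread shows how the size varied, for Ckm from 1.19 to 4.93.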

How the data were processed

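The authors deposited linear intensities of both dyes for every spot, as medians already corrected for background by a method not named in the sources used here, together with a spot flag. The authors also deposited log2 ratios made by Lowess normalization and centred on the median of each probe, and these were an alternative (correlation with the values used here, centred per probe, 0.969 to 0.999 by array). Here signals under 1 were set to 1 and log2(Cy5/Cy3) was normalized by loess in limma 3.58.1 (R 4.3.3), with 1 fit (lmFit, eBayes) of a mean per time point on all 51 arrays and Benjamini-Hochberg adjustment over 14342 probes. Control spots were left out, flagged spots (2.27%) had a weight of 0, and 38 probes lacking a value at a time point were dropped. The fit was tested on simulated data.

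Groups came from the labels and slides from the array files. Descriptions came from the paper's Additional files, the first of which was at hand in part, and probes of 1 gene were kept apart. The members and the 29 lists were chosen with earlier results of these data known. Named genes were the 10 largest rises and falls among described probes past both thresholds, with no flag, Cy5 from 500 to below 60000 on the 9 brighter arrays and no overlap, 1 probe a description, then the largest rise and fall of each list without the overlap rule, and every hemoglobin and vitellogenin probe. Precision is limited by 3 fish per time point. Alternatives were other normalizations, filters, thresholds, tests and blocks, and arrays, replicate numbers or time points left out. A few probes are not reported here.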

Additional observations from a re-analysis of the deposited data

Results flagged for a closer look

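Among the named probes, the 9 values of each group were searched for a single value far from the others, in 90 groups of values, of which chance alone would flag about 1 in 20. The search found 1. Slow skeletal troponin T (Tnnt1, C020R081) had a log2 ratio of -5.48 in the 20 dpf sample of replicate 3, while the nearest of the other 20-30 dpf arrays was at -3.65, and the gap took up 0.583 of the range of the group. The same array had the lowest median over the contractile list, at -1.57 relative to the 20-30 dpf mean of each probe. Without it 939 probes were at least 2-fold higher and 257 lower.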

How the results depend on the processing

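The 45 named probes kept their direction in all 1993 values from the alternatives that tested them. Most had been chosen for large differences on these same arrays, so that outcome was largely fixed in advance. In the 28 whose groups did not overlap, leaving out arrays could not reverse it. Of the 1993 values, 49 from 12 probes had an adjusted p of 0.05 or more. Among these, 22 belonged to vitellogenin, 9 to hemoglobin subunit alpha, 4 to GSTP1, 3 to hemoglobin subunit beta and 2 each to hba4 and hbb4, and 12 came from the slides with both groups alone, which hold 8 arrays. GM2, KNG1, TUB-2, foxa2 and nt5c3l lost 1 each. The counts of probes at least 2-fold higher and lower were 1475 and 394 without a filter on dim probes, 312 and 33 with signal on all 18 arrays, 584 and 146 within slides that held both groups, and 728 and 633 with median centring. At any fold, 1156 probes rose and 3428 fell with median centring, 1050 and 571 with signal on all 18 arrays, 620 and 180 within slides with both groups, 1205 and 719 on slides 7 to 14 alone, and 853 and 409 with time point means as units. On slides 1 to 6 alone 642 probes were at least 2-fold lower. The methods' t-test with adjustment gave 1043 falls at any fold, and without adjustment, at a p of at most 0.01, 925 and 246 probes at least 2-fold higher and lower. At any fold 984 probes fell without the 20 dpf time point and 1150 without the 47 dpf time point. Leaving out 1 array gave 939 to 1024 probes at least 2-fold higher and 253 to 327 lower, and 1879 to 2220 rises and 1434 to 1843 falls at any fold. Leaving out 1 replicate number gave 920 to 1000 probes at least 2-fold higher and, without replicate 1, 255 and, without replicate 2, 447 lower. At any fold it gave 1406 rises without replicate 3 to 1870, and 870 falls without replicate 3, 1044 without replicate 2 and up to 1370. The causes were not tested. Quantile scaling of the average signal leaves log ratios as they are and gave the same counts.

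Same-numbered arrays of different days did not deviate together (median correlation 0.07 over 45 pairs, -0.40 to 0.52), so the numbers were not taken as pairs. With the replicate number as a block 979 probes were at least 2-fold higher and 265 lower, and 2261 rose and 2050 fell at any fold.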

Other observations

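The lists not given above changed little or in few members. Of 7 tested claudin probes, which code for tight junction proteins, 2 rose and none fell, but the median difference was -0.24. Claudin-6 (CLDN6) was at 2.14 on 1 probe and -0.36 on the other. Of these 7 probes, 1 passed the signal minimum at 35-47 dpf only and 4 at 20-30 dpf only. Of 6 probes for digestive enzymes and gut hormones 2 rose, FABP2 and an acidic mammalian chitinase (CHIA) at 1.97. Of these 6 probes, 2 passed the signal minimum at 35-47 dpf only and 1 at 20-30 dpf only. Of 20 histone probes 1 rose and 5 fell, 3 of the falls for the linker histone H1x (H1FX), whose 4 probes had differences between -0.90 and -0.50. Among the transcription factors, otx2 had a difference of 1.18, and the probes described as XHOX-7.1 of -1.10 and -0.83.

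Interferon-induced protein 44 (IFI44) had 2 tested probes, 1 at 2.40 (limma, adjusted p = 1.19e-06) and 1 at 0.34, which did not pass the test.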
